A study of Mus musculus with 11 samples.

Results

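The Hox gene clusters were followed through ATAC-seq peaks, the stretches of open chromatin that the authors found in mouse bone marrow haematopoietic stem cells (HSCs). A peak was counted as a Hox peak when the gene assigned to it, the one with the nearest start site, has a symbol made of Hoxa, Hoxb, Hoxc or Hoxd and a number. This rule takes no measured value and gave 68 of the 94410 peaks. They were 17 peaks of the Hoxa cluster, 24 of Hoxb, 21 of Hoxc and 6 of Hoxd. Of the 39 Hox genes listed by RefSeq, 33 had at least 1 peak, and Hoxa6, Hoxc6, Hoxd1, Hoxd3, Hoxd4 and Hoxd10 had none assigned to them.

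The study asked how chromatin accessibility differs between young HSCs and 2 fractions of old HSCs. There were 3 libraries of old AThi HSCs, sorted as GFPlo, 3 libraries of old ATlo HSCs, sorted as GFPhi, and 5 libraries of young HSCs, which were not split by GFP. Old libraries are numbered as 3 pairs, 1 AThi and 1 ATlo library each. All 3 groups, young HSCs included, carried the genotype Gfplc3/Gfplc3, a GFP-tagged Lc3 reporter on both copies, and all were taken at steady state, without a treatment. The sources used here give no ages in numbers, no sex and no count of animals behind each library, so a p-value covers only the variation among these libraries, which may be technical. Sorting by GFP was applied to old HSCs alone, so in both comparisons with young HSCs age and sorting cannot be told apart.

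Hox genes encode homeodomain transcription factors and lie in mammals in 4 clusters, ordered so that low-numbered (anterior) genes are at the 3′ end and high-numbered (posterior) genes at the 5′ end. In the embryo this order mirrors the body axis, and Polycomb complexes hold the clusters shut where they are not used. In blood, genes of the Hoxa and Hoxb clusters are the ones best known for work in stem and progenitor cells: Hoxa9 supports HSC expansion and is a driver in leukaemia, forced Hoxb4 expands HSCs, and Hoxb5 marks long-term HSCs in the mouse. An open promoter is not a measurement of transcription.

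Promoter letters are shown for 2 Hox genes with contrasting behaviour below, one with a peak over its start that differed between groups and one with the strongest peak over a start in HSCs apart from Hoxa3. Each is the 250 bases before the start site on the gene's own strand, from RefSeq, build GRCm38.p6, with every CG pair in capitals, since CG-rich promoters are the ones that Polycomb and Trithorax complexes act on.
Hoxd13, chr2:74667975-74668224, plus strand: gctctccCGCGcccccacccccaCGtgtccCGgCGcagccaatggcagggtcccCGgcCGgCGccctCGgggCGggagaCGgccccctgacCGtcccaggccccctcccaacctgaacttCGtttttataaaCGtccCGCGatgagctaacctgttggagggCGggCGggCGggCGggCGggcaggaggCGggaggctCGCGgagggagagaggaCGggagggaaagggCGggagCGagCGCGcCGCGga
Hoxa10, chr6:52234940-52235189, minus strand: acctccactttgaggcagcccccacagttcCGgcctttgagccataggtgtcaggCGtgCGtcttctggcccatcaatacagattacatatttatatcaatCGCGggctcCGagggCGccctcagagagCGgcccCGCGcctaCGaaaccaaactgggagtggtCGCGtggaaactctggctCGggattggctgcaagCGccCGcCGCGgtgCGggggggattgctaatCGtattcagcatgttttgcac
Hoxd13 has 31 CG pairs in this window and Hoxa10 has 20. The peak over Hoxd13 covers positions -25 to +703 from the start site, and that of Hoxa10 covers -167 to +1079 from the start shown here, the one of its 2 starts in RefSeq with the stronger peak. Among the 24 Hox promoters of 22 genes in the RefSeq table the median was 12.5 CG pairs per window (range 2 to 35), against 6 in all 32851 promoters. The pentamer CCAAT, bound by NF-Y, was searched on both strands. It occurred in 14 of the 24 Hox windows (58.3%), against 33.8% of all windows. Both printed windows hold it, with a match beginning 212 bases before the Hoxd13 start and 64 bases before the Hoxa10 start. The letters AGATAA, bound by Gata factors, were in 0 of the 24 Hox windows and in 9.99% of all windows. CCGGAAGT, an ETS motif, was in 0 of 24 against 2.88%, TGANTCA, an AP-1 motif, in 1 of 24 (4.17%) against 6.75%, and TGATTNAT, a motif of Hox factors with Pbx, in 2 of 24 (8.33%) against 2.82%. These are letter matches in 1 window per promoter and say nothing of binding.

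The clusters also hold miRNA genes in or between the Hox genes. Their mature 5p forms hold 3 different seeds, shown in capitals (bases 2 to 8), from the same RefSeq build.
miR-10a-5p, encoded in the Hoxb cluster: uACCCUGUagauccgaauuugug
miR-10b-5p, encoded in the Hoxd cluster: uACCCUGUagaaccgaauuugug
miR-196a-5p, encoded in the Hoxb and Hoxc clusters: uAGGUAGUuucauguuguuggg
miR-196b-5p, encoded in the Hoxa cluster: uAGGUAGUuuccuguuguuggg
miR-615-5p, encoded in the Hoxc cluster: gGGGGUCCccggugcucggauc
Both miRNAs of the miR-10 pair share 1 seed both of the miR-196 pair share another, and miR-615-5p has a seed of its own. The miR-10 and miR-196 families are known to repress Hox mRNAs.

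The files give, for each peak, a mean normalised count over all 11 libraries, called its level here, and log2 changes with their SE for AThi against young, ATlo against young and AThi against ATlo. They hold 0 columns of values per library, so the spread between libraries is known only through the SE. The authors' DESeq2 test was read at an adjusted p under 0.05. Both old groups were set against the same young libraries, so their changes are not independent. In bulk ATAC-seq, more open chromatin in each cell and more cells with an open site cannot be told apart. Promoter peaks of HSC markers were present for 9 of 10 genes (none for Ly6a) with a median level of 128, and of 12 markers of T cells or of granulocytes and monocytes 2 had a promoter peak. Promoter peaks were also present at 6 of 6 stromal markers (median level 121, up to 234), 4 of 6 erythroid markers (median 228) and 3 of 6 B cell markers (median 56.0). Of the 6 endothelial markers 5 had one (median 61.0, from 27.7 to 107), with none for Cdh5.

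HSC chromatin was most open in the Hoxa cluster and least in Hoxc and Hoxd. Per kilobase of peak, which allows levels to be compared between peaks of unequal width, the median level was 127 normalised counts in Hoxa, 74.9 in Hoxb, 43.1 in Hoxc and 45.1 in Hoxd, against 51.4 over all peaks. The authors' deposited table put the highest levels of all Hox peaks at Hoxa3 (251 normalised counts), Hoxa7 (243) and Hoxa10 (197). Per kilobase the most open Hox peak was a narrow one at Hoxa7, 809 bases downstream, with 506 normalised counts per kb, above 99.8% of all peaks. The lowest levels were 4.06 at a Hoxc4 promoter peak, 6.76 at a distal peak assigned to Hoxb1 and 9.15 at Hoxd9. Hox promoter peaks were weak for promoters: the 38 within 1 kb of a start had a median level of 43.8, against 122 for all promoter peaks of that class. They were also narrower, with a median width of 470 bases against 1057. Per kilobase the medians were 70.5 and 117. The 14 distal intergenic Hox peaks had a median level of 24.6, against 21.2.

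**Figure D1:**
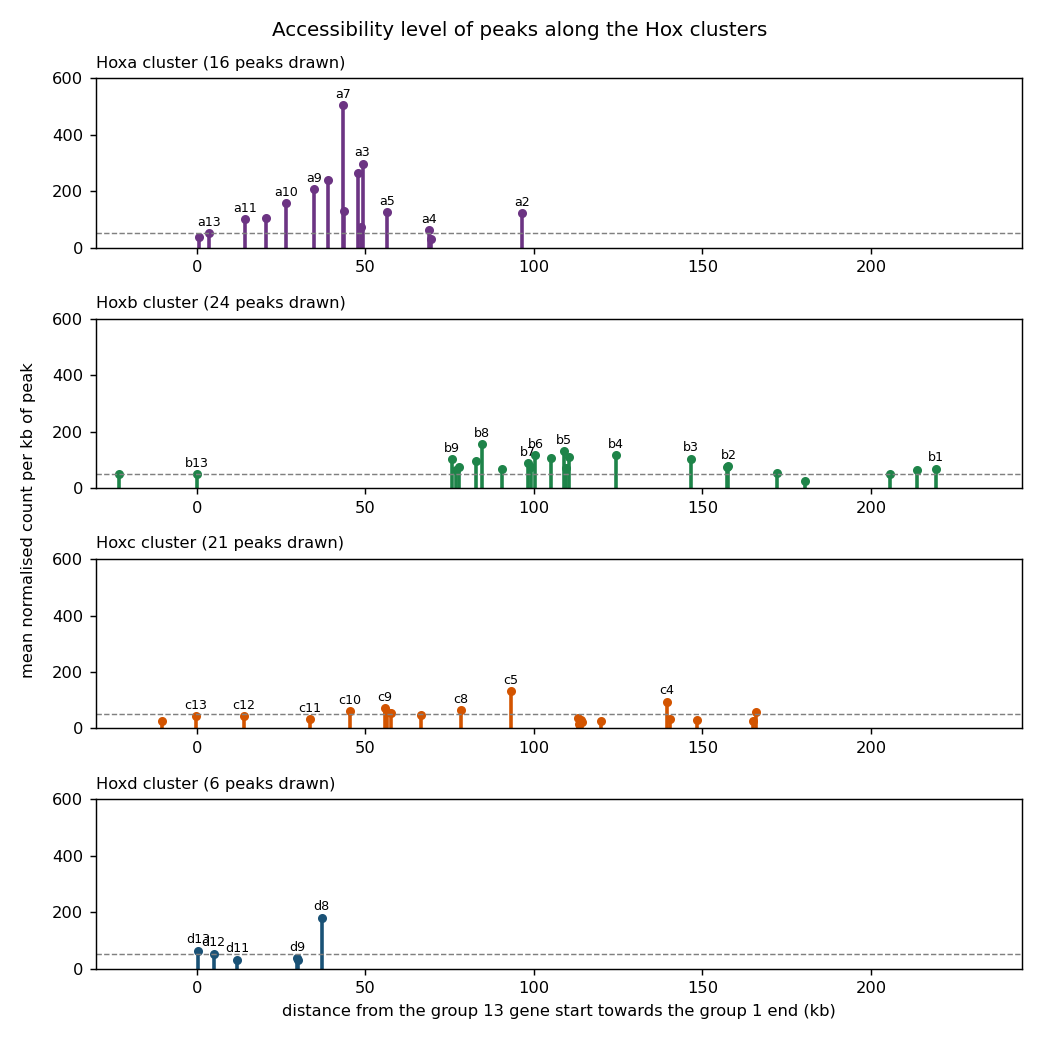
Levels along the 4 Hox clusters. Each point is 1 Hox peak, placed by its distance in kb from the start of the group 13 gene, with the mean normalised count per kb over 11 libraries on a linear axis and the median of all peaks, 51.4, as a dashed line. In Hoxa 16 of the 17 peaks are drawn. The Hoxa cluster sits highest, with a median of 127 per kb, and Hoxc and Hoxd lowest, at 43.1 and 45.1.

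More Hox peaks were higher than lower in old HSCs. In old AThi HSCs 10 of the 67 Hox peaks with an adjusted p were higher than in young HSCs (14.9%, against 7.57% of all peaks) and 0 were lower (against 2.74%). In old ATlo HSCs 7 of 67 were higher (10.4%, against 6.88% of all peaks) and 1 was lower (1.49%, against 2.54%). The 10 peaks higher in AThi HSCs were assigned to genes of all 4 clusters: 1 in Hoxa, 3 in Hoxb, 4 in Hoxc and 2 in Hoxd. Those 7 higher in ATlo HSCs were 2 in Hoxb, 3 in Hoxc and 2 in Hoxd, and the comparisons share the young libraries. Some of these peaks lie beyond the outermost genes of their cluster. Peaks were also counted by position between the outermost genes with a peak, whatever the gene assigned. Then 7 were higher in AThi HSCs (10.4%, against 7.57% of all peaks). In ATlo HSCs 5 were (7.46%, against 6.88%). The median log2 change over the 68 Hox peaks was 0.34 in AThi and 0.11 in ATlo HSCs, both against young, beside -0.04 and -0.03 over all peaks. Changes above 0 were seen at 51 of 68 Hox peaks in AThi HSCs (75.0%, against 46.3% of all peaks) and at 46 of 68 in ATlo HSCs (67.6%, against 47.1%).

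Scaling bears on these counts. The strongest 10% of promoter peaks, 1811 with a level of at least 356, had median log2 changes of -0.22 in AThi and -0.31 in ATlo HSCs against young under the authors' scaling. With changes measured relative to these promoters, 15 Hox peaks were higher and 0 lower in AThi HSCs, where 13.6% of all peaks were higher, and 13 were higher and 0 lower in ATlo HSCs, where 17.3% were. The Hox medians were then 0.56 and 0.42 against 0.18 and 0.28 over all peaks.

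**Figure D2:**
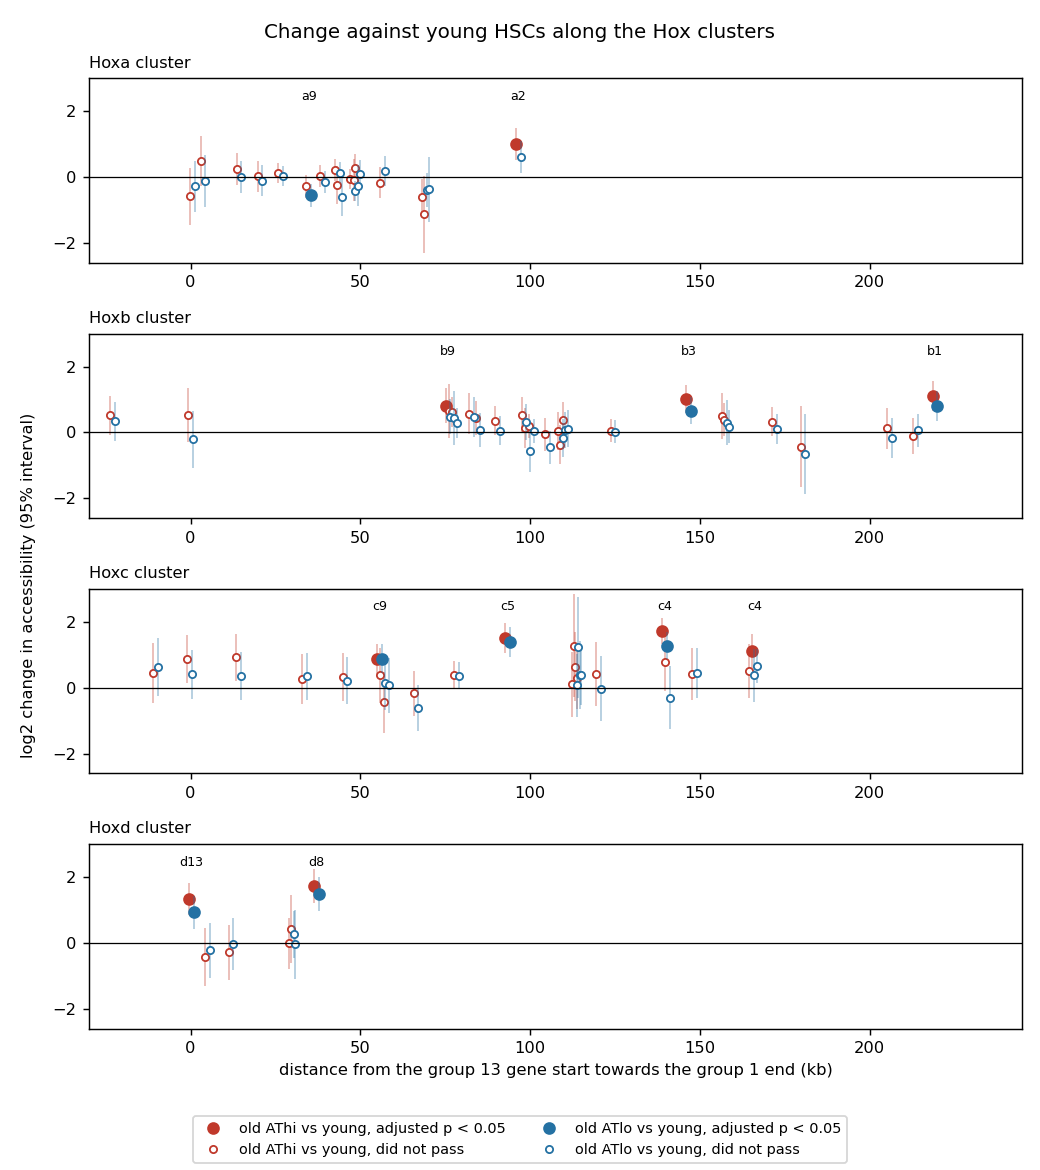
Log2 changes of Hox peaks along the clusters, with 16 of the 17 Hoxa peaks drawn. Each peak has a point for AThi and, offset to the right, a point for ATlo, both against young, with 95% intervals (1.96 SE) and filled symbols for an adjusted p under 0.05. The 10 filled AThi points all lie above 0, and the 1 filled point below 0 is ATlo at Hoxa9.

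Hoxd8, a middle gene of the Hoxd cluster, had the largest change of any Hox peak. Its promoter peak, chr2:74535416-74535707 (mm39), 126 bases upstream of the start in the authors' annotation, had a level of 53.0 normalised counts, and by the authors' deposited table its log2 change was 1.73 (SE 0.26) in AThi HSCs (DESeq2 adjusted p = 5.49e-09) and 1.48 (SE 0.26) in ATlo HSCs (adjusted p = 1.65e-06). Levels per group were implied for this and the other called peaks from the mean over the 11 libraries and the fold changes, and are approximate because fitted fold changes need not equal ratios of group means. On that scale the Hoxd8 promoter stood near 82.9 in AThi and 69.7 in ATlo HSCs, against 25.0 in young HSCs. At the posterior end of the same cluster, the peak over the start of Hoxd13, a gene of the digits and genital bud, was higher as well. The authors' deposited table gave this peak, chr2:74498544-74499272, a log2 change of 1.33 (SE 0.25) in AThi (adjusted p = 5.33e-06) and 0.93 (SE 0.25) in ATlo HSCs (adjusted p = 0.00503), with implied levels of 70.9 and 53.8 against 28.1 in young. This is the gene whose CG-rich promoter is printed above. The other 4 Hoxd peaks, 1 at Hoxd12, 1 at Hoxd11 and 2 at Hoxd9, had levels of 9.15 to 17.3 and none passed.

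Of the 10 peaks assigned to Hoxc4, which in mouse B cells helps switch on the antibody-mutating enzyme AID, the 2 that rose lie far from the gene. The stronger, chr15:102968631-102969665, lies 25810 bases downstream in intergenic DNA, beyond the 3′ end of the cluster, and had a level of 98.1 normalised counts. In the authors' deposited table it changed by 1.72 (SE 0.21) log2 in AThi HSCs (adjusted p = 5.97e-14) and by 1.28 (SE 0.21) in ATlo HSCs (adjusted p = 2e-07), the smallest p of any Hox peak in the AThi comparison. Implied levels were 161 in AThi and 118 in ATlo HSCs, against 48.6 in young HSCs. A weaker one, chr15:102995169-102996087, 52348 bases downstream, stood in the authors' deposited table at 1.11 (SE 0.27) log2 in AThi (adjusted p = 0.000873) and 0.66 (SE 0.27) in ATlo HSCs, where it did not pass (adjusted p = 0.1). The 4 peaks at the Hoxc4 promoter itself had levels of only 4.06 to 11.8, and none with an adjusted p passed in either comparison. The weakest had no adjusted p. Its values in the authors' deposited table were 1.27 (SE 0.80) in AThi and 1.22 (SE 0.78) in ATlo HSCs.

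Inside the Hoxc cluster 2 genes had higher promoter peaks. Hoxc5, a middle gene of the cluster, had a peak 134 bases downstream, chr15:102922574-102923107, at a level of 70.6. The authors' deposited table gave it a log2 change of 1.51 (SE 0.24) in AThi (adjusted p = 2.25e-08) and 1.40 (SE 0.23) in ATlo HSCs (adjusted p = 3.41e-07), and implied levels were 103 and 95.4 against 36.2 in young. The peak over the start of Hoxc9, which patterns thoracic motor neurons, chr15:102884773-102885814, changed by 0.86 (SE 0.23) in AThi (adjusted p = 0.00339) and 0.88 (SE 0.22) in ATlo HSCs (adjusted p = 0.00256) in the authors' deposited table. Its implied levels were 92.5 and 93.4, against 50.8 in young HSCs. Between the fractions these 2 promoters showed log2 differences of 0.11 (SE 0.25) for Hoxc5 and -0.01 (SE 0.25) for Hoxc9, neither of which passed.

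Of the peaks assigned to Hoxb genes, those that rose lie outside the gene starts. A peak 2404 bases upstream of Hoxb3, chr11:96231378-96232191, had a level of 85.0. Hoxb3 and Hoxb4 together are known to affect the proliferation of HSCs in mice that lack them. In the authors' deposited table the Hoxb3 peak changed by 1.02 (SE 0.21) log2 in AThi HSCs (adjusted p = 5.6e-05) and by 0.67 (SE 0.21) in ATlo HSCs (adjusted p = 0.023). A distal peak, chr11:96303977-96304842, 47393 bases downstream of Hoxb1 on the side of the neighbouring gene Skap1, had a level of 60.1 and stood in the authors' deposited table at 1.11 (SE 0.23) log2 in AThi (adjusted p = 6.32e-05) and 0.80 (SE 0.23) in ATlo HSCs (adjusted p = 0.011). The third, chr11:96160758-96161143, 1013 bases upstream of Hoxb9, was higher in AThi HSCs by 0.81 (SE 0.27, adjusted p = 0.0279) and had 0.48 (SE 0.27) in ATlo HSCs without passing (adjusted p = 0.285), both from the authors' deposited table. In AThi HSCs it was the called Hox peak nearest to the threshold. Just outside it was the promoter peak of the same gene, 242 bases downstream, at 0.62 (SE 0.23) in AThi HSCs (adjusted p = 0.0637, from the authors' deposited table as well).

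The Hoxa cluster, the most open of the 4, had 1 peak that was higher and 1 that was lower. Hoxa2, the anterior gene that patterns the second pharyngeal arch, had a promoter peak at chr6:52141177-52141582 with a level of 49.8. By the authors' deposited table it was 1.01 (SE 0.24) higher in log2 in AThi HSCs (adjusted p = 0.000818) and had 0.61 (SE 0.24) in ATlo HSCs (adjusted p = 0.0946), which did not pass. The lower peak belongs to Hoxa9 and lies 964 bases downstream of its start, chr6:52202727-52203386, at a level of 137. In ATlo HSCs it fell by 0.55 on the log2 scale (adjusted p = 0.0248 in the authors' deposited table), while AThi HSCs had -0.28 (SE 0.18) and did not pass (adjusted p = 0.36). Implied levels were 130.3 in AThi and 108 in ATlo HSCs, against 158 in young HSCs. This call depends on scaling: relative to the strongest promoters the ATlo change was -0.24 (adjusted p = 0.398). The difference between the fractions at Hoxa9 was 0.28 (SE 0.20) in log2, and it did not pass either.

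**Figure D3:**
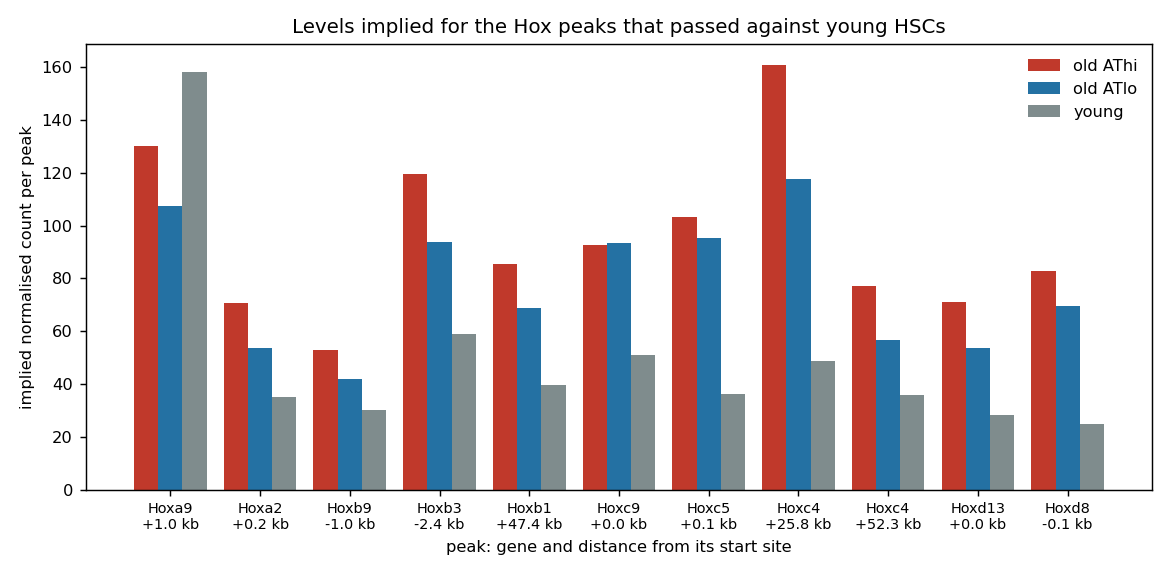
Implied levels of the 11 Hox peaks that passed against young in either old group, in normalised counts, with AThi left, ATlo in the middle and young right for each peak. Levels follow from the mean over 11 libraries and the 2 fold changes. At 10 peaks both old groups lie above young, and at Hoxa9 both lie below, with ATlo lowest at 108.

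The Hox peaks that were higher were of middle level. The 10 peaks higher in AThi HSCs had levels between 39.6 and 98.1 normalised counts. In the band of 50 to 100 counts 7 of 16 Hox peaks were higher in AThi HSCs (43.8%, against 14.4% of all peaks in that band), and 15 of the 16 had a change above 0. Of the 8 Hox peaks above 100 counts, all in Hoxa or Hoxb, 0 were higher in AThi HSCs, against 8.07% of all peaks between 100 and 300, and 1, at Hoxa9, was lower in ATlo HSCs (12.5%, against 6.39%). Of the 21 tested Hox peaks under 20 counts 0 were higher, against 4.15% of all such peaks, and their median SE was 0.45, against 0.17 in the strongest band, so that smaller changes could be detected in strong peaks. At the Hox peaks above 100 counts the median change in AThi HSCs was 0.09.

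**Figure D4:**
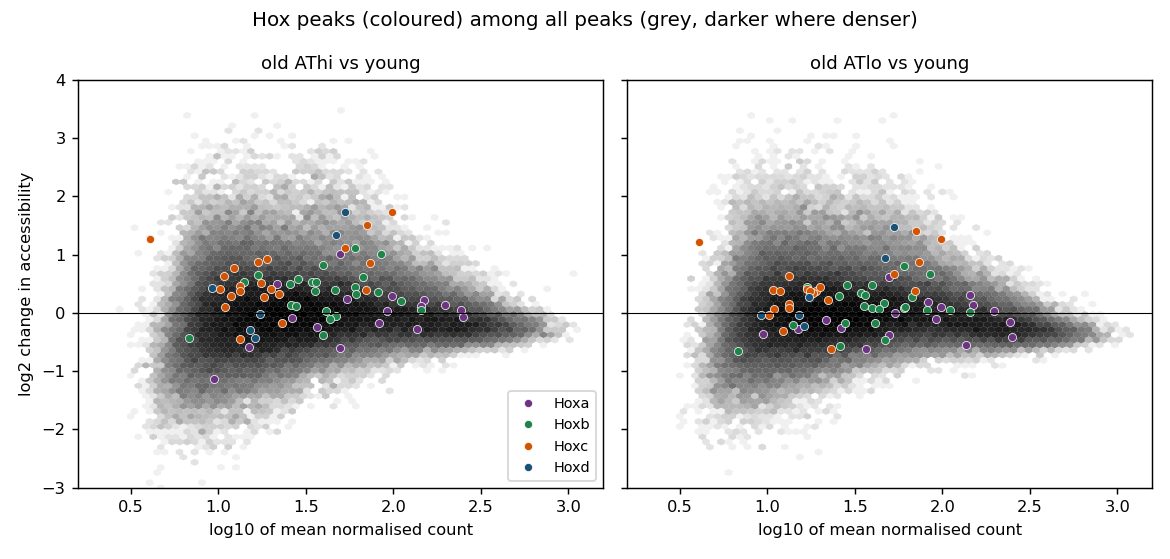
Log2 change against level for Hox peaks (points) over the density of all peaks (grey), for AThi against young on the left and ATlo against young on the right. The x axis is the mean normalised count on a log scale. Colours give the cluster. The highest Hox points of the AThi panel, Hoxd8 at 1.73 and Hoxc4 at 1.72, lie at levels of 53.0 and 98.1, and the strongest Hox peaks lie near 0.

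Going by gene, 33 Hox genes had a promoter peak within 3 kb of a start, and the strongest such peak was higher in AThi HSCs at 6 genes and lower at 0. In ATlo HSCs it was higher at 5 genes and lower at 1. The shares of genes higher were 18.2% and 15.2%, against 8.07% and 6.27% for the strongest promoter peak of every gene, of which 4.85% and 7.33% were lower. Beside Hoxa2 and Hoxa9, described above, no strongest promoter peak of a Hoxa gene passed. In the authors' deposited table Hoxa10, which acts in early myeloid cells and megakaryocytes, had 0.13 (SE 0.15) in AThi and 0.03 (SE 0.15) in ATlo HSCs at a level of 197, and the 95% interval for AThi HSCs was -0.17 to 0.44. Hoxa7, a middle gene of the cluster, had 0.05 (SE 0.17) and -0.16 (SE 0.17) at its strongest peak, 2895 bases upstream of the start. Hoxa3, a gene of the pharyngeal arches and thymus, had -0.06 (SE 0.16) in AThi and -0.41 (SE 0.16) in ATlo HSCs, this last value being the Hox peak nearest to the threshold among those that missed it in ATlo HSCs (adjusted p = 0.079 in the authors' deposited table). Hoxa11, of the forearm and kidney, had 0.24 (SE 0.25) and 0.00 (SE 0.24), by the authors' deposited table. Hoxa5, of the lung and the axial skeleton, had -0.17 (SE 0.24) and 0.19 (SE 0.23). Hoxa4 had -0.61 (SE 0.28) and -0.39 (SE 0.27), and Hoxa13, of the digits, -0.58 (SE 0.44) and -0.28 (SE 0.40) at a level of only 15.0. None of these passed.

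Of the Hoxb promoters, that of Hoxb4 was the strongest. Hoxb4, the HSC expansion gene, had a peak over its start at a level of 144 with 0.06 (SE 0.18) in AThi and 0.02 (SE 0.18) in ATlo HSCs in the authors' deposited table, and 95% intervals of -0.30 to 0.41 and -0.32 to 0.37. A doubling at this promoter thus lies outside both intervals. Hoxb5, the marker of long-term HSCs, had 0.04 (SE 0.29) and -0.17 (SE 0.29) at a level of 41.1. Hoxb8, which can hold myeloid progenitors in culture when forced, had 0.44 (SE 0.26) and 0.08 (SE 0.26). The authors' deposited table gave -0.06 (SE 0.25) and -0.46 (SE 0.26) for Hoxb6, 0.35 (SE 0.23) and 0.05 (SE 0.23) for Hoxb7, 0.39 (SE 0.26) and 0.17 (SE 0.26) for Hoxb2, and 0.33 (SE 0.23) and 0.10 (SE 0.23) for Hoxb1, whose work is in the hindbrain, each time for AThi and then ATlo. Hoxb13, of the prostate and tail, had 0.53 (SE 0.42) and -0.20 (SE 0.44) at a level of 13.9. None of these promoter peaks passed.

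At the promoters of Hoxc10, Hoxc11, Hoxc12 and Hoxc13 every value was above 0, with wide errors, and none passed. Hoxc13, of hair and nails, had 0.88 (SE 0.37) in AThi (adjusted p = 0.118) and 0.41 (SE 0.38) in ATlo HSCs in the authors' deposited table, and Hoxc12 had 0.92 (SE 0.36, adjusted p = 0.0826) and 0.37 (SE 0.37). Hoxc11 had 0.26 (SE 0.38) and 0.34 (SE 0.37), and Hoxc10, of lumbar motor neurons, 0.33 (SE 0.37) and 0.21 (SE 0.37). For Hoxc8, of brachial motor neurons, the values were -0.17 (SE 0.34) and -0.62 (SE 0.35), and for the strongest Hoxc4 promoter peak 0.29 (SE 0.48) and 0.38 (SE 0.46). Levels of these 6 peaks lay between 11.8 and 23.1. In Hoxd the authors' deposited table gave Hoxd12 -0.43 (SE 0.45) and -0.23 (SE 0.43), Hoxd11 -0.28 (SE 0.43) and -0.04 (SE 0.40), and Hoxd9 -0.01 (SE 0.39) and 0.27 (SE 0.37). None passed. The 23 Hox peaks that the rule for naming left out, mostly second peaks of a promoter and distal ones, had levels of 10.2 to 150.4 and changes of -0.25 to 0.66 in AThi and -0.61 to 0.63 in ATlo HSCs, and 0 of them passed.

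By cluster, the median log2 change in AThi HSCs was 0.03 in Hoxa, 0.38 in Hoxb, 0.45 in Hoxc and 0.21 in Hoxd, against -0.04 over all peaks. In ATlo HSCs it was -0.11, 0.09, 0.38 and 0.11, against -0.03 over all peaks, and the Hoxa value turns to 0.20 relative to the strongest promoters, where all peaks have 0.28. Summed over peaks, implied levels of Hoxc were 788 in AThi and 683 in ATlo HSCs, against 441 in young HSCs. Hoxd came to 208 and 183 against 112, Hoxb to 1371 and 1178 against 1064, and Hoxa to 1719 and 1568 against 1672. All peaks came to 5958000 and 5793000 against 6078000. A sum can be set by a few peaks, and in Hoxd only those of Hoxd8 and Hoxd13 passed. By position along the body axis, 5 of the 25 tested anterior peaks (groups 1 to 4) were higher in AThi HSCs, 2 of 18 middle ones (5 to 8) and 3 of 24 posterior ones (9 to 13). The 3 segments had 20.0%, 11.1% and 12.5% of their peaks higher, and the difference between segments was not tested.

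**Figure D5:**
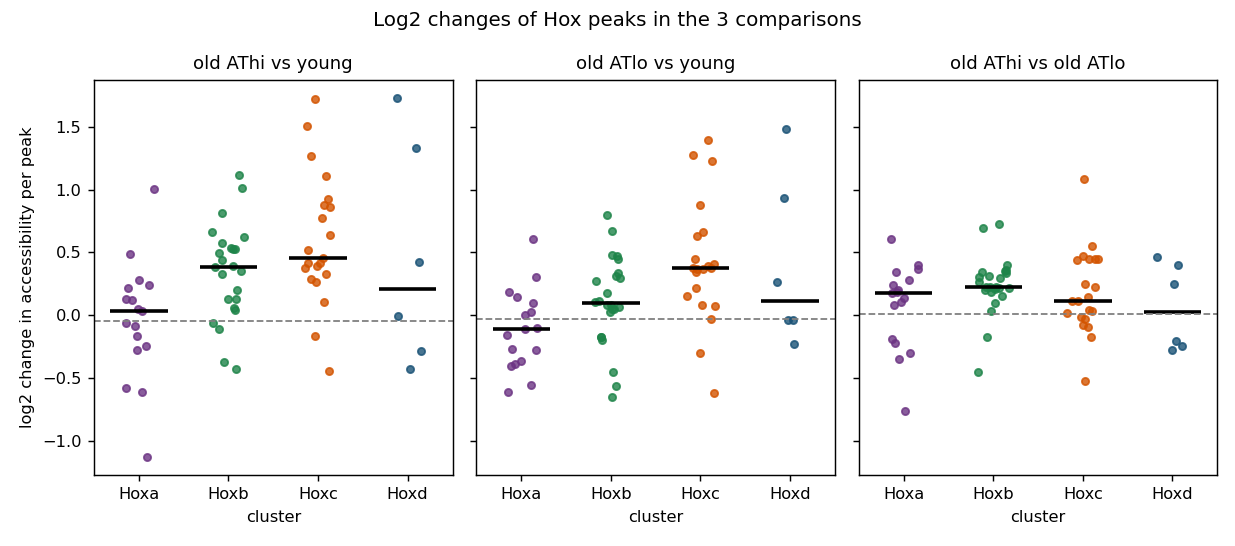
Log2 changes of Hox peaks by cluster, for AThi against young, ATlo against young and AThi against ATlo. Each point is 1 peak and each bar the cluster's median, with the median of all peaks as a line. In AThi against young the medians are 0.03 for Hoxa and 0.45 for Hoxc; the Hoxa median of ATlo, -0.11, turns to 0.20 and the Hoxd median of AThi against ATlo, 0.02, to -0.07 relative to the strongest promoters.

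Between the 2 fractions of old HSCs no Hox peak passed. The authors' DESeq2 Wald test, read from the deposited tables, called 0 of 68 Hox peaks and 0% of all peaks for AThi against ATlo, with an adjusted p of 1.0 throughout. At an unadjusted p under 0.05 it had 3 Hox peaks, all higher in AThi (4.41%, against 1.78% of all peaks). The log2 difference was above 0 at 52 of 68 Hox peaks (76.5%, against 51.0% of all peaks), with a median of 0.21 beside 0.01. Promoter peaks as a class leaned the same way. Within 1 kb of a start the log2 difference was above 0 at 71.05% of Hox peaks, against 63.69% of all such peaks. Their medians were 0.16 and 0.06. Relative to the strongest promoters it was above 0 at 47 of 68, with a median of 0.12. The Hoxb cluster had 22 of 24 above 0 with a median of 0.22. Medians were 0.18 in Hoxa, 0.11 in Hoxc and 0.02 in Hoxd, where the value turns to -0.07 relative to the strongest promoters. Whether the authors' test used the pairing of the old libraries could not be checked.

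None of the Hox peaks with the smallest p above 0 or below 0 passed. By value, in the authors' deposited table the 5 higher in AThi than in ATlo were Hoxc4 peaks 27038 bases downstream (1.08, SE 0.53, unadjusted p = 0.0416) and 25810 bases downstream (0.45, SE 0.22, p = 0.0425), Hoxa3 over its start (0.35, SE 0.17, p = 0.0471), Hoxb6 5430 bases upstream (0.70, SE 0.37, p = 0.0608) and the Hoxb3 peak described above (0.35, SE 0.23, p = 0.128). The first of these Hoxc4 peaks has a level of 12.2, and the second is the one that rose in both fractions against young. Below 0 the authors' deposited table had Hoxa5 (-0.35, SE 0.26), Hoxb5 117 bases downstream (-0.45, SE 0.34), Hoxa4 103 bases downstream (-0.77, SE 0.66) and a Hoxc9 peak 1698 bases downstream (-0.53, SE 0.52), with unadjusted p from 0.178 to 0.315. Of the 10 peaks higher in AThi HSCs than in young, 9 had an AThi against ATlo value above 0. At the strongest of these changes against young, Hoxd8, the 95% interval of the difference between fractions was -0.29 to 0.79.

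Between the outermost Hox genes that have a peak of their own, which leaves out the anterior side of Hoxd beyond Hoxd8, 13 peaks carry another gene's name, and 0 of them passed. The strongest, assigned to the antisense gene Hoxb5os, had a level of 198 and changes of -0.01 (SE 0.18) in AThi and -0.22 (SE 0.18) in ATlo HSCs in the authors' deposited table. The peak over the start of Hoxb3os, a transcript antisense to Hoxb3, had 0.54 (SE 0.20) in AThi HSCs (adjusted p = 0.0511) and 0.47 (SE 0.19) in ATlo HSCs, by the authors' deposited table. ATAC-seq has no strand, so peaks of a gene and its antisense partner cannot be told apart. Of the miRNA genes whose products are printed above, 3 had a peak assigned to them here. None was assigned to Mir615, which lies within Hoxc5, near the promoter peak described for that gene. In the authors' deposited table Mir196b had -0.33 (SE 0.24) and -0.42 (SE 0.24), Mir10a 0.27 (SE 0.20) and -0.10 (SE 0.21), and Mir196a-1 0.34 (SE 0.30) and 0.25 (SE 0.30), for AThi and ATlo.

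Assignment by the nearest start does not tell whether a peak belongs to a miRNA or to a neighbouring Hox gene such as Hoxd4. The anterior side of the Hoxd cluster, where no peak was assigned to a Hoxd gene, did hold a peak that passed, assigned to Mir10b. It lies at chr2:74557414-74558157 (mm39), 1000 bases from the miRNA's start, at a level of 49.8, and the authors' deposited table gave it log2 changes of 1.40 (SE 0.25, adjusted p = 1.67e-06) in AThi and 1.15 (SE 0.25, adjusted p = 0.000209) in ATlo HSCs. At the other end of Hoxd, the promoter of Evx2, a homeobox gene that shares enhancers with Hoxd13, had a peak at 1.84 (SE 0.30) in AThi and 1.30 (SE 0.30) in ATlo HSCs, and its exon peak 1.26 and 0.89, by the authors' deposited table. The peak over the start of Hoxd3os1, on the same side, had -0.10 (SE 0.27) in AThi and -0.20 (SE 0.26) in ATlo HSCs in the authors' deposited table and did not pass. In a list of 25 genes in or beside the clusters, 18 had peaks, and of these 73 peaks 8 were higher and 0 lower in AThi HSCs (10.96% higher, against 7.57% of all peaks), and 7 were higher and 0 lower in ATlo HSCs (9.59%, against 6.88%). The other genes of this list with a higher peak in AThi HSCs were Hottip, the non-coding RNA at the Hoxa13 end, Halr1 beyond the anterior end of Hoxa, and the flanking genes Skap1 and Skap2, which were named after their values were seen. The list's median log2 change was 0.07 in AThi and 0.01 in ATlo HSCs.

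Peaks of genes that act with or on the clusters were counted beside all peaks. Of all peaks 7.57% were higher and 2.74% lower in AThi HSCs, and 6.88% and 2.54% in ATlo HSCs. Hox cofactors, the Meis, Pbx and Pknox genes, had 85 peaks, of which 8 were higher and 3 lower in AThi HSCs, and 8 higher and 3 lower in ATlo HSCs (9.52% and 3.57% in each), with medians of 0.20 and 0.18. In the authors' deposited table the peak with the smallest p was assigned to Meis3, at 2.05 in AThi and 1.72 in ATlo HSCs. Activators of Hox transcription, among them the Trithorax group and Cdx genes, had 37 peaks with 2 higher and 1 lower in AThi HSCs (5.41% and 2.70%) and 2 higher and 2 lower in ATlo HSCs (5.41% and 5.41%), with medians of -0.14 and -0.08. A distal peak of Wdr5, a core subunit of the MLL complexes, had 1.90 in AThi and 1.69 in ATlo HSCs, and the promoter of Kat6a, an acetyltransferase that HSCs need, had -0.80 and -0.94, by the authors' deposited table. Polycomb genes had 83 peaks with 6 higher and 4 lower in AThi HSCs (7.50% and 5.00%) and 3 higher and 4 lower in ATlo HSCs (3.75% and 5.00%), with medians of -0.02 and -0.09. Among them the authors' deposited table had Ezh1, a histone H3 lysine 27 methyltransferase, at 1.34 and 0.80 in intron 1, Cbx8, a subunit of the first Polycomb complex, at 1.41 and 1.26 at a distal peak, and the promoter of Jarid2, a partner of the second, at -0.51 and -0.68. All values named here passed in both comparisons.

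Markers of other cell types were counted beside the Hox result. The 51 peaks of the 6 endothelial markers had 11 higher and 1 lower in AThi HSCs and 9 higher and 1 lower in ATlo HSCs. The share higher was 22.4% of those tested in AThi HSCs, against 14.9% of Hox peaks and 7.57% of all peaks, and 18.4% in ATlo HSCs, against 10.4% and 6.88%. Their implied levels summed to 2730 in AThi and 2620 in ATlo HSCs, against 2240 in young HSCs. The 72 peaks of the 6 stromal markers had 3 higher and 3 lower in each (4.17% either way), with sums of 2930 and 2890 against 2920. The 10 HSC markers had 134 peaks, of which 16 were higher and 1 lower in AThi HSCs (12.0% higher) and 10 higher and 2 lower in ATlo HSCs (7.52% higher), and sums of 7390 and 7060 against 7010. The part of these cell types in the Hox result was not tested.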

How the data were processed

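ATAC-seq libraries of Gfplc3/Gfplc3 bone marrow HSCs were made from 3 old AThi, 3 old ATlo and 5 young samples. Per the labels' protocols isolation and transposition took 2 days, libraries were prepared together and sequenced with paired ends. No source used here ties a sample to a day, so day and group cannot be told apart. The submitters' processing notes list, with neither role nor version, BWA, ChIPseeker, cutadapt, DESeq2, featureCounts, MACS2 and Trim Galore. The sources used here do not describe any transposase shift, duplicate removal or merging of peaks, all of which set where peaks lie.

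The deposited files are 3 tables of the authors' comparisons over the same 94410 peaks, with 0 columns per library, so depth could not be checked and no model was refitted. The authors' mean normalised count per peak was used as a signal value. The authors' deposited log2 changes, their SEs, the authors' Wald statistic (a score per peak) and the authors' deposited p-values, Benjamini-Hochberg adjusted over all peaks, were used as they stand. Adjusted p-values were missing for 1831 peaks, 1 of them a Hox peak. All 3 comparisons come from 1 fit, to within 1.02e-14. Intervals are 1.96 SE on each side.

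Gene identifiers were matched to RefSeq symbols for 20791 of 20810. Both GRCm38 and mm39 appear in the processing notes. Coordinates of peaks are treated as mm39 and 1-based, since 0 of 34 Hox gene records share both ends with GRCm38.p6, so sequences, which come from GRCm38.p6, carry coordinates of that build.

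Named were every Hox peak that passed, the strongest promoter peak of each Hox gene, the 3 strongest and 3 weakest peaks, and 5 peaks in each direction for AThi against ATlo. Single values of 2 genes that this rule takes in are not reported here. The members and lists were chosen with earlier results of these data known. Alternatives were a stricter adjusted p, a 2-fold minimum, centring on all peaks or on the strongest 10% of promoters, other filters on low levels, members by position, and promoters alone. Scripts ran in Python 3.11.15 with pandas 2.3.3, numpy 2.4.6, scipy 1.17.1 and matplotlib 3.10.9 and were tested on simulated data.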

Additional observations from a re-analysis of the deposited data

How the results depend on the processing

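Of the counts of called Hox peaks and the medians over them, 54 values under the alternatives lay near the reported one (counts within 1.5 times, medians within the median SE of the Hox peaks) and 9 moved further, all in ATlo against young. The 24 counts for AThi against ATlo were 0 throughout, since 0 peaks of any kind were called there, and say nothing of stability. No median over the Hox peaks as a whole turned its sign. Relative to the strongest promoters, cluster medians did for Hoxa in ATlo HSCs and for Hoxd between the fractions. Centring on the strongest promoters took the AThi count from 10 to 15 (22.4%, against 14.5% of all peaks). It took the AThi median from 0.34 to 0.56 and the AThi against ATlo median from 0.21 to 0.12. The 8 Hox peaks that passed in ATlo HSCs became 5 at an adjusted p under 0.01 (7.46%, against 5.13% of all peaks). With at least a 2-fold change they became 3 (4.48%, against 5.06%), and centred on the strongest promoters 13 (19.4%, against 17.6%). The 7 higher ones became 3 with a 2-fold minimum (4.48%, against 4.49%) and 13 when centred on the strongest promoters (19.4%, against 17.3%). By position 5 peaks were higher in ATlo HSCs (7.46%, against 6.88%). In AThi HSCs the 10 higher peaks became 7 by position (10.4%, against 7.57% of all peaks). With both directions counted, 10.3% of all peaks passed in AThi HSCs. The 1 lower peak, at Hoxa9, became 0 at an adjusted p under 0.01, with a 2-fold minimum and when centred on the strongest promoters. The ATlo median of 0.11 became 0.42 when centred on the strongest promoters, where that of all peaks was 0.28. Of the single peaks, 40 values kept their side of the threshold and 4 did not, all in ATlo HSCs on that last scale: Hoxb9 at 0.79 (adjusted p = 0.0228), Hoxc4 at 0.98 (adjusted p = 0.00321) and Hoxa2 at 0.92 (adjusted p = 0.00195) passed, and Hoxa9 at -0.24 (adjusted p = 0.398) no longer did. The cause was not tested. Selecting peaks by position used the span up to Hoxd8 in Hoxd, so Mir10b is not in it. No paired analysis was possible because the tables hold no values per library. Fits that leave out a library were not run for the same reason, so whether 1 library sets a Hox change is not known. Weak Hox peaks, under 20 normalised counts, had a median SE of 0.45, which limits what could be detected there.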
